A study of Mus musculus with 8 samples.

Results

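Interferon-stimulated genes were examined in MT-ret tumours after treatment with an antibody to Ang2, the vessel ligand angiopoietin-2 (anti-Ang2, 4 tumours), or with IgG (4 tumours). The set is a list of 38 genes chosen by name as sensors of foreign nucleic acid, transcription factors and antiviral effectors. It was drawn up with earlier results of these data known. A probe set naming that gene alone was found for 34 of them, out of 22840 genes tested. Oas1a and Gbp2 were not analysed here because their probe sets name a second gene as well, and Stat2 and Ifih1 were not analysed here either. Ddx58 is the older symbol of Rigi.

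MT-ret is a mouse melanoma model in which a metallothionein promoter drives a Ret oncogene. In both groups, tumour fragments had been implanted in C57BL/6N mice, on the ventral flank. Dosing began on day 7 after implantation and ended once the primary tumour had been resected, and RNA of the whole tumour piece was measured on 1 whole-transcript array per tumour. All 8 tumours had therefore been exposed to an antibody, with no untreated group, and the hosts kept their own immune cells. The files give each sample its own tumour number, but nothing says in words that each came from a separate mouse, so the p-values measure the spread between these 8 samples. Melanocytic marker genes, among them Dct, Tyrp1, Pmel and Tyr, had list means of 10.76 to 10.86 log2 intensity units in anti-Ang2 tumours, against 10.40 to 10.93 in IgG tumours, so the labelled tissue carried its defining transcripts. The mouse Ret probe set lay below the median gene in its mean signal.

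Interferons are secreted proteins that cells release when sensors such as RIG-I or cGAS meet viral or misplaced nucleic acid. Type I interferons bind a receptor made of Ifnar1 and Ifnar2 and activate the kinases Jak1 and Tyk2, after which a complex that contains Irf9 enters the nucleus and switches on genes that carry its binding element in their promoters. Type II interferon, encoded by Ifng and made mainly by T and NK cells, works through a different receptor and a different promoter element. In tumours these genes are read as a sign of interferon signalling in cancer cells, blood vessel cells and infiltrating leukocytes alike, which a whole-tissue measurement cannot separate.

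The promoter letters that such complexes recognise are shown first, because they are the feature through which these genes are known to be switched on together. RefSeq promoter windows of build GRCm38.p6, from 250 bases before to 50 bases after the start site, were matched for 25 of the 34 genes. The letters GAAA, any 2 bases and GAAA again, the core of the interferon-stimulated response element (ISRE), were searched on both strands with overlapping matches counted. They occurred in 12 of the 25 genes (48.0%, 95% Wilson interval 30.03 to 66.5), in 32 of 94 other interferon pathway genes and in 3.99% of the 27025 genes in the promoter table. TTCNNNGAA, the core of the gamma-activated site through which type II interferon acts, which reads the same on both strands, occurred in 7 of 25 (28%, 14.3 to 47.6), against 9.55% of all genes. Windows without a match say only that these letters are not within them.

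The sequences below run 5′ to 3′ from 250 bases before to 30 bases after the start, with matches to the ISRE core in capitals. They are shown for the 4 genes with the smallest p in the comparison that hold such a match: Isg15 (chr4:156200789-156201068, minus strand), Ddx58 (chr4:40239796-40240075, minus strand), Rsad2 (chr12:26456423-26456702, minus strand) and Eif2ak2 (chr17:78882543-78882822, minus strand).
Isg15: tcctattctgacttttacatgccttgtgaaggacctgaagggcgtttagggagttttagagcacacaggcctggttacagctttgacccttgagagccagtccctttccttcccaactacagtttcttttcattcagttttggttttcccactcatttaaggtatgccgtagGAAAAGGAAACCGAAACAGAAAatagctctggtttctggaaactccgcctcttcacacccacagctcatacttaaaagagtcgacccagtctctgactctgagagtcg
Ddx58: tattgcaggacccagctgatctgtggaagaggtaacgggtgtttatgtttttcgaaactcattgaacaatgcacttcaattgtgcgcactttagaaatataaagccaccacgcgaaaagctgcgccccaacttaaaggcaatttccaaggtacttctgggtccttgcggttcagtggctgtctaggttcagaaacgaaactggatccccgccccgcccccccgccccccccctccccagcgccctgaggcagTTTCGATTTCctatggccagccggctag
Rsad2: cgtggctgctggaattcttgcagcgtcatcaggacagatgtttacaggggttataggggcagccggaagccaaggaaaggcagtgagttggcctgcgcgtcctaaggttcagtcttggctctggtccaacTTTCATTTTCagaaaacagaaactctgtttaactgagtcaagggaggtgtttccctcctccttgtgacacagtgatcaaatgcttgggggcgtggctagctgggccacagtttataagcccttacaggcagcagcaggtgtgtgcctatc
Eif2ak2: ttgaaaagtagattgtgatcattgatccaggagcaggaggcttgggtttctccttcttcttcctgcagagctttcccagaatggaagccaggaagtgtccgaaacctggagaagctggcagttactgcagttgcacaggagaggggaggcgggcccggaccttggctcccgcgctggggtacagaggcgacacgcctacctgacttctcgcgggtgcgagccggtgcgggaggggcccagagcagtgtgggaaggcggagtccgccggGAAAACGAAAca

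Isg15 carried 3 overlapping matches, with first bases at -78, -72 and -66 from the start, and the other three carried 1 match each. In Rsad2 the match lay upstream, with its first base at -120. In Ddx58 and Eif2ak2 it began at bases 3 and 19 after the start. Irf1 (chr11:53769764-53770043, plus strand) is set beside them since it had no match to the ISRE core and 1 match to TTCNNNGAA, shown in capitals.
Irf1: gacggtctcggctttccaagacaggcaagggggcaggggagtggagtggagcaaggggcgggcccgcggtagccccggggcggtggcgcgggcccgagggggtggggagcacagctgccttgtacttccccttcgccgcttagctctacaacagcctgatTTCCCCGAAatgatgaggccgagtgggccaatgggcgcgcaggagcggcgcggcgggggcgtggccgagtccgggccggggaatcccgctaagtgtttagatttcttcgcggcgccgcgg

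That TTCNNNGAA match in Irf1 had its first base at -90. Ifit2 and Ifi35 likewise held TTCNNNGAA and no match to the ISRE core, so this pattern was not particular to Irf1. Lgals3bp, Oasl2, Oasl1, Irf9, Irf7, Cmpk2, Trim25, Ifi44, Samd9l and Xaf1 held neither pattern in their windows, while Bst2, Igtp, Ifitm3 and Eif2ak2 held both. Usp18, Zbp1, Parp14, Rtp4, Dhx58, Parp9, Oas2, Mx1 and Mx2 had no window here.

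The question of the comparison was what Ang2 blockade did to tumour transcripts. Most of the interferon-stimulated genes stood slightly higher in anti-Ang2 tumours, with 25 of 34 differences above 0 and 9 below. The positive share was 73.5%, where 53.5% of all genes tested had a positive difference. Their median difference was 0.14 log2 units, against 0.012 for all genes tested. With limma, 0 of the 34 genes had an adjusted p under 0.05 and neither did any other gene (0% of all genes). The smallest adjusted p among the 34 was 0.585, for Isg15. At an unadjusted limma p under 0.05 there were 6 genes higher (17.6%, where 4.09% of all genes were higher) and 1 lower (2.94%, where 3.00% of all genes were lower). The groups did not overlap for 4 of the 34 genes (3.74% of all genes), 3 on the higher side (2.28% of all genes) and 1 on the lower side (1.46% of all genes). Since whole tumour pieces were measured, fewer cells of a type and less RNA per cell cannot be told apart.

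These counts leaned on single tumours. Without IgG replicate 1, 29 of 34 genes were higher, 11 had an unadjusted p under 0.05 (7.41% of all genes) and the median was 0.18. That number was 4 when IgG replicate 2 was dropped (5.64% of all genes), and again 4 when anti-Ang2 replicate 3 was dropped (6.77% of all genes). The median was 0.09 without IgG replicate 4. None of the 34 passed the adjusted threshold in any of these fits.

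**Figure D1:**
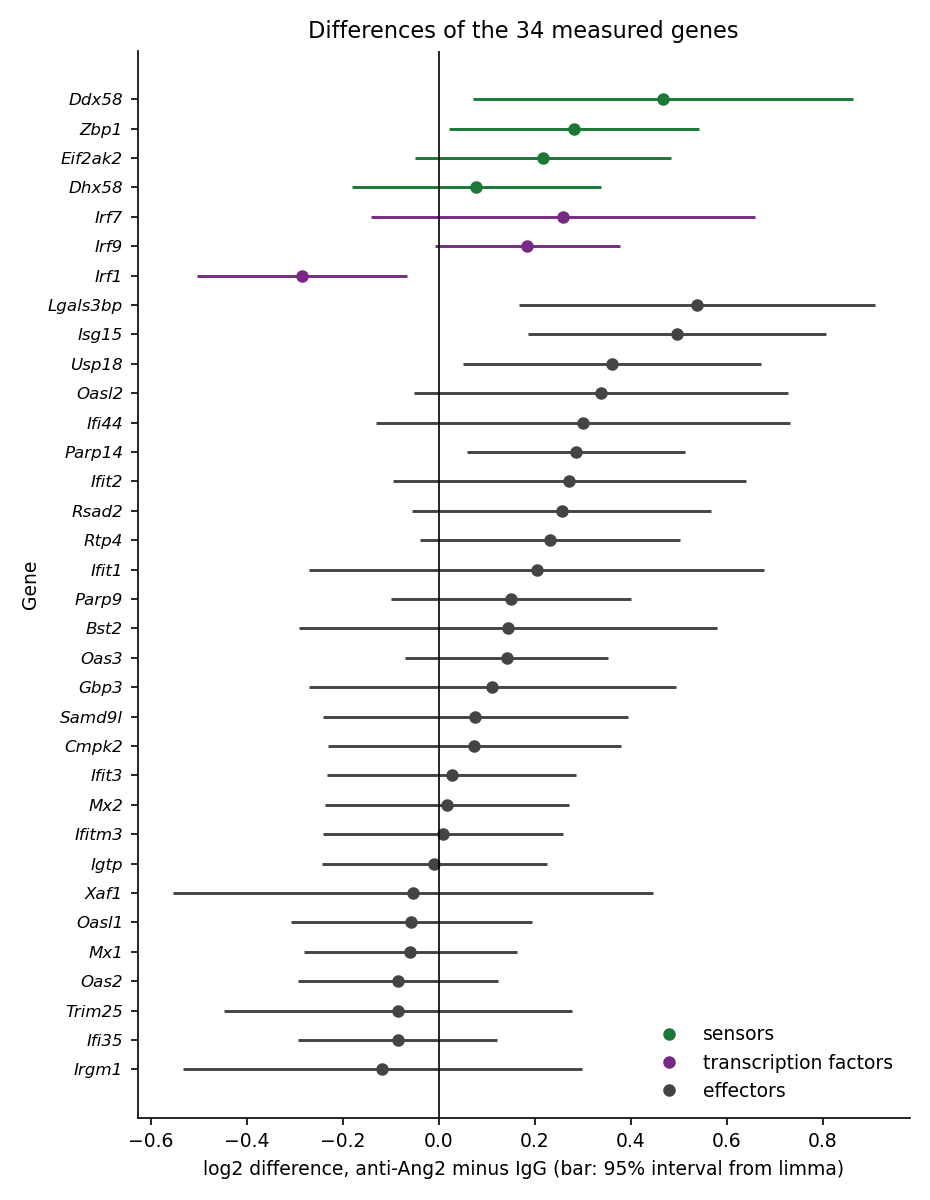
Log2 difference (anti-Ang2 minus IgG, horizontal axis) of each of the 34 measured genes, with its 95% interval from limma as a bar and its role as the colour of the point. Of the 34 points, 25 lie to the right of 0, from 0.0084 for Ifitm3 to 0.54 for Lgals3bp, and Irf1 at -0.28 is the farthest to the left.

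Sensors of nucleic acid had 4 of 4 measured differences above 0, with a median of 0.25. Ddx58 encodes RIG-I, the receptor for viral RNA ends. Its log2 intensity was 8.40, 8.65, 8.54 and 8.11 in anti-Ang2 tumours, against 8.43, 7.62, 8.07 and 7.69 in IgG tumours. The groups overlapped through IgG replicate 1, which lay above anti-Ang2 replicates 1 and 4. The difference was 0.47, a fold of 1.38 (95% interval 1.05 to 1.82, limma adjusted p = 0.689), and it ranged from 0.36 to 0.63 when 1 tumour was left out.

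Zbp1, a sensor of nucleic acid in the Z shape that can trigger cell death, read 6.57, 6.48, 6.15 and 6.21 in anti-Ang2 tumours, against 6.24, 6.07, 5.88 and 6.09 in IgG tumours. Anti-Ang2 replicates 1 and 2 were above every IgG tumour, while the other two lay within the IgG range. Its difference was 0.28 (fold 1.22, interval 1.01 to 1.46, limma adjusted p = 0.695). Eif2ak2, the kinase PKR that halts translation when it binds double-stranded RNA, differed by 0.22, and Dhx58, the RIG-I relative LGP2, by 0.078. Both intervals included 0.

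The transcription factors split, with Irf9 and Irf7 above 0 and Irf1 below it. Irf1, a factor induced strongly by type II interferon, was the 1 gene of the 34 whose anti-Ang2 values all lay below its IgG values. It read 6.33, 6.42, 6.61 and 6.47 in anti-Ang2 tumours, against 6.92, 6.63, 6.64 and 6.77 in IgG tumours. The gap between the groups was narrow, between anti-Ang2 replicate 3 and IgG replicate 2. The difference was -0.28 (fold 0.821, interval 0.706 to 0.955, limma adjusted p = 0.662), and with 1 tumour left out it stayed between -0.34 and -0.22.

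Irf9, the DNA-binding part of the type I interferon complex, read 8.16, 8.10, 8.22 and 8.14 in anti-Ang2 tumours, against 7.93, 7.82, 8.05 and 8.10 in IgG tumours. All anti-Ang2 values lay above all IgG values, though anti-Ang2 replicate 2 exceeded IgG replicate 4 by less than the second decimal. The difference was 0.18 (fold 1.14, interval 0.994 to 1.30, limma adjusted p = 0.717). Irf7, the factor that amplifies type I interferon production, differed by 0.26 with a wide interval of -0.14 to 0.66. It was highest in anti-Ang2 replicate 3 at 7.91 and next highest in IgG replicate 1 at 7.65. Annotation text is cut short in the file for Irf1, Irf7, Ddx58, Oasl1 and Parp9, so a further gene on these probe sets was not checked.

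Isg15 and Usp18 formed the effector pair with the highest median difference among the effector groups, 0.43. Isg15, a ubiquitin-like protein joined to other proteins during antiviral defence, read 7.08, 7.03, 6.90 and 6.89 in anti-Ang2 tumours, against 6.77, 6.59, 6.04 and 6.51 in IgG tumours. All 4 anti-Ang2 tumours were above the 4 IgG tumours, and IgG replicate 3 was the lowest. The mean was 6.97 ± 0.09 in the anti-Ang2 group, against 6.48 ± 0.31 in the IgG group (SD, 4 tumours each), a difference of 0.50 or a fold of 1.41 (interval 1.14 to 1.75, limma adjusted p = 0.585). It lay between 0.35 and 0.59 with 1 tumour left out, the lowest of these without IgG replicate 3.

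Usp18, the protease that removes Isg15 and damps the type I receptor, read 7.67, 7.44, 7.87 and 7.30 in anti-Ang2 tumours, against 7.41, 7.07, 7.37 and 6.99 in IgG tumours. Anti-Ang2 replicate 4 lay below IgG replicates 1 and 3, so the groups overlapped. The difference was 0.36 (fold 1.28, interval 1.04 to 1.59, limma adjusted p = 0.689).

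Lgals3bp, a secreted glycoprotein that binds galectins, had the largest difference of the 34. It read 8.66, 9.21, 8.61 and 8.33 in anti-Ang2 tumours, against 8.43, 8.09, 8.13 and 8.02 in IgG tumours. Anti-Ang2 replicate 2 stood highest and anti-Ang2 replicate 4 lay below IgG replicate 1. The difference was 0.54 (fold 1.45, interval 1.12 to 1.88, limma adjusted p = 0.616), or 0.37 to 0.66 with 1 tumour left out. The lowest of these was without anti-Ang2 replicate 2.

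Parp14, a mono-ADP-ribosyltransferase, read 7.39, 7.37, 7.65 and 7.30 in anti-Ang2 tumours, against 7.25, 7.25, 7.07 and 7.01 in IgG tumours. Its groups did not overlap, by a small margin. The difference was 0.29 (fold 1.22, interval 1.04 to 1.43, limma adjusted p = 0.670). Its relative Parp9 differed by 0.15, and Trim25, the ubiquitin ligase that acts on RIG-I, by -0.085. Without IgG replicate 1, where Trim25 was highest, its difference was 0.071.

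**Figure D2:**
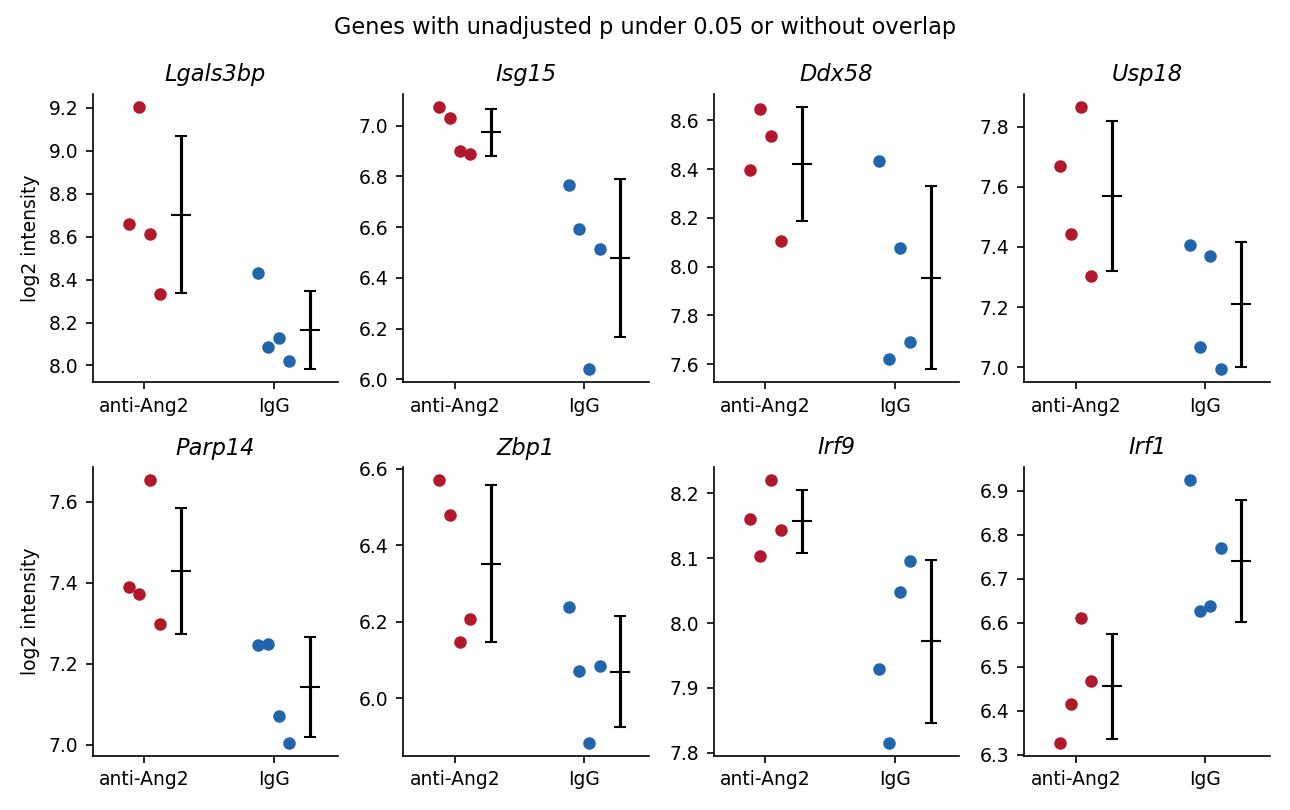
Log2 intensity (vertical axis, a separate scale for each gene) in the 4 anti-Ang2 tumours (red, left) and the 4 IgG tumours (blue, right) for the 8 genes with an unadjusted limma p under 0.05 or with groups that did not overlap, with the mean and SD of each group in black. Isg15, Parp14 and Irf9 lie higher in all anti-Ang2 tumours, Irf1 lies lower in all of them, and the other 4 genes overlap.

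The Ifit genes encode a family of antiviral proteins, and all 3 had differences above 0. Ifit2 read 7.74, 7.46, 7.09 and 7.05 in anti-Ang2 tumours, against 6.92, 7.28, 6.81 and 7.25 in IgG tumours. Anti-Ang2 replicates 1 and 2 were above every IgG tumour and the other two were inside the IgG range. The difference was 0.27 (fold 1.21, interval 0.936 to 1.56, limma adjusted p = 0.794). Ifit1 differed by 0.20 and Ifit3 by 0.027. Leaving out anti-Ang2 replicate 3 gave -0.063 for Ifit3, and leaving out IgG replicate 4 gave -0.016. Ifit1 was highest in IgG replicate 1 (7.77) and lowest in IgG replicate 4 (6.62), so both ends of its range lay among IgG tumours. Ifit3 can share signal with its close copy Ifit3b.

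The oligoadenylate synthetases make a messenger that activates RNase L, and Oasl1 and Oasl2 are relatives of these enzymes. Oasl2 read 7.14, 7.03, 7.94 and 7.17 in anti-Ang2 tumours, against 7.09, 6.94, 7.05 and 6.84 in IgG tumours. Anti-Ang2 replicate 3 stood far above the other seven tumours. The difference was 0.34 (fold 1.26, interval 0.965 to 1.66, limma adjusted p = 0.740), and 0.13 without that tumour. Oas3 differed by 0.14, Oasl1 by -0.057 (0.025 without IgG replicate 1) and Oas2 by -0.085.

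Rsad2 encodes viperin, which makes a chain-ending nucleotide, and Cmpk2 next to it in the genome encodes a nucleotide kinase. Rsad2 read 7.58, 7.11, 7.27 and 6.95 in anti-Ang2 tumours, against 7.09, 6.83, 7.16 and 6.80 in IgG tumours. Anti-Ang2 replicates 2 and 4 lay below IgG replicate 3, so the groups overlapped. The difference was 0.26 (fold 1.19, interval 0.963 to 1.48, limma adjusted p = 0.751), beside 0.074 for Cmpk2. The Mx genes encode GTPases that trap viral particles, and Mx1 is defective in C57BL/6 mice. Mx2 differed by 0.017 and Mx1 by -0.059, with intervals of -0.24 to 0.27 and -0.28 to 0.16, and Mx2 turned negative without IgG replicate 2, IgG replicate 3 or anti-Ang2 replicate 3 (-0.043 at the lowest).

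Gbp3, Igtp and Irgm1 belong to the GBP and IRG families of GTPases, which coat the vacuoles of intracellular microbes and respond chiefly to type II interferon. The differences of these 3 genes lay between -0.12 and 0.11. Gbp3 read 6.88, 6.52, 6.38 and 6.65 in anti-Ang2 tumours, against 6.93, 6.33, 6.63 and 6.09 in IgG tumours. Both the highest and the lowest value belonged to IgG tumours. The difference was 0.11 (95% interval -0.27 to 0.49, limma adjusted p = 0.923), or -0.025 without IgG replicate 4. Igtp differed by -0.0094 and Irgm1 by -0.12, and both were positive without anti-Ang2 replicate 4 (0.052 and 0.050).

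Among membrane proteins, Rtp4, a chaperone of receptors, read 7.66, 7.69, 7.82 and 7.43 in anti-Ang2 tumours, against 7.69, 7.43, 7.37 and 7.18 in IgG tumours. IgG replicate 1 lay among the anti-Ang2 values, IgG replicate 2 matched the lowest of them at this rounding, and the other two lay below. The difference was 0.23 (fold 1.17, interval 0.973 to 1.42, limma adjusted p = 0.742). Bst2, the tetherin that holds budding virus at the cell surface, read 9.73, 9.94, 10.25 and 9.75 in anti-Ang2 tumours, against 10.23, 9.45, 10.05 and 9.37 in IgG tumours. IgG replicates 1 and 3 were above most anti-Ang2 tumours and IgG replicates 2 and 4 below all of them. The difference was 0.14 (interval -0.29 to 0.58, limma adjusted p = 0.909).

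Ifitm3, which blocks viral fusion in endosomes, had the highest array signal of the 34 and hardly differed. It read 11.12, 11.43, 11.57 and 11.14 in anti-Ang2 tumours, against 11.30, 11.31, 11.41 and 11.21 in IgG tumours. The anti-Ang2 values surrounded the IgG values on both sides. The difference was 0.0084 (fold 1.01, interval 0.846 to 1.20, limma adjusted p = 0.993), and -0.0074 when each array was centred on its median. Of the remaining effectors, Ifi44 differed by 0.30, Samd9l, a restriction factor that slows translation, by 0.076, Xaf1, a pro-apoptotic protein, by -0.054 and Ifi35 by -0.086. Xaf1 ranged widely, from 6.93 in anti-Ang2 replicate 1 to 8.06 in IgG replicate 1, and turned to 0.15 and 0.10 when those tumours were left out in turn. Samd9l turned to -0.034 without anti-Ang2 replicate 2, where it was highest.

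**Figure D3:**
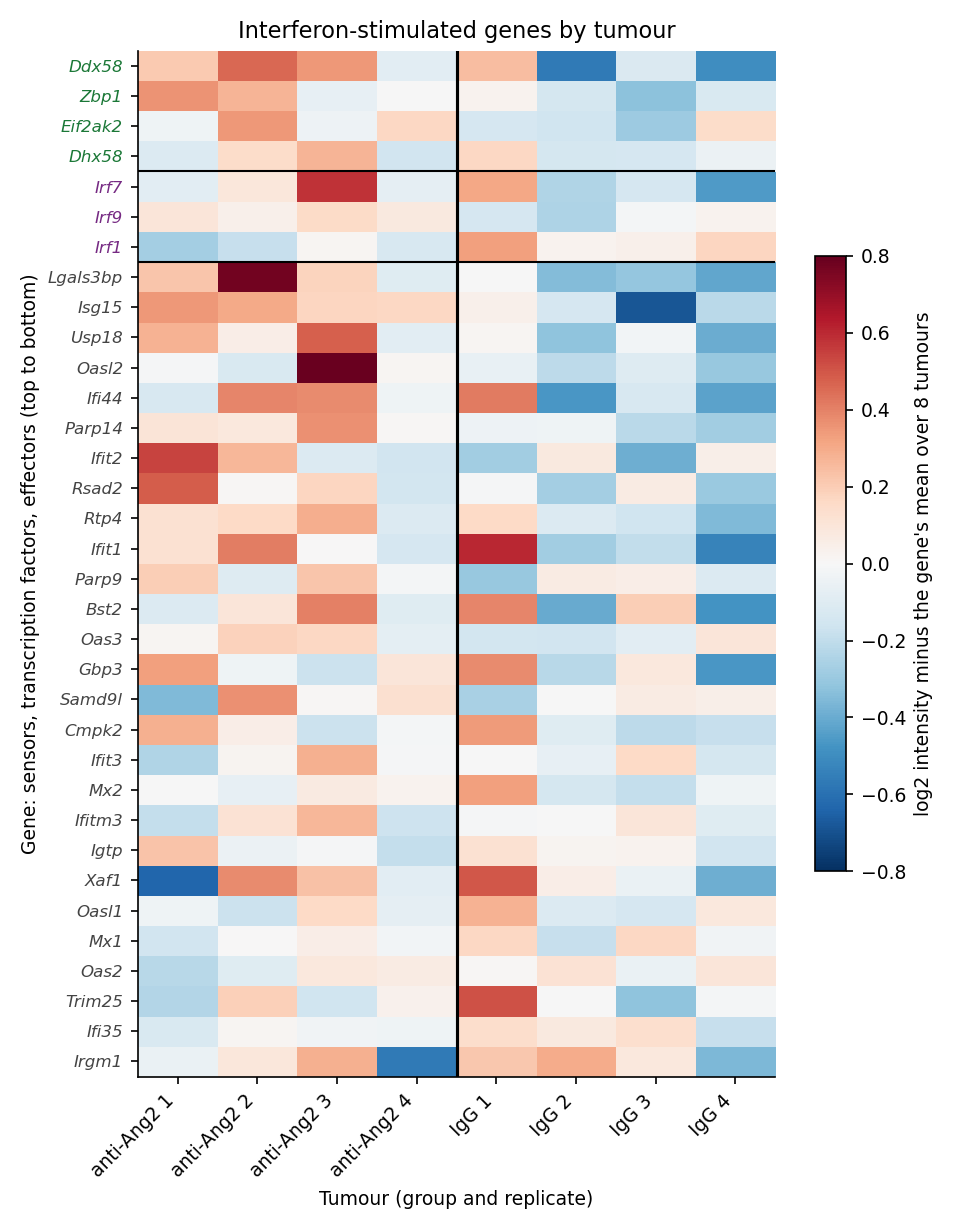
Log2 intensity of each gene minus its mean over the 8 tumours (colour scale), with tumours as columns (anti-Ang2 left of the black line, IgG right of it) and genes as rows by role, sorted by difference within each role. IgG replicate 1 stands out within its group, with the highest value of all tumours for 10 of the 34 genes, and anti-Ang2 replicate 3 has the highest value for 11.

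Tumours of 1 group differed among themselves. The median deviation of the 34 genes from their own means was -0.01, 0.09, 0.17 and -0.05 in anti-Ang2 replicates 1 to 4, against 0.13, -0.14, -0.09 and -0.17 in IgG replicates 1 to 4. IgG replicate 1 thus lay inside the anti-Ang2 values, and the other three IgG tumours lay below them all. IgG replicate 4 had the lowest value for 11 of the 34 genes and IgG replicate 3 for 7. For all genes together the same median stayed between -0.02 and 0.02 in each tumour. The spread of single genes was also wider than usual, with a median SD of 0.21 in anti-Ang2 tumours, against 0.18 in IgG tumours, against 0.14 and 0.14 over all genes.

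Many of the genes moved together from tumour to tumour. Over the 8 tumours the mean Pearson's r of the 561 gene pairs was 0.22, and it was 0.20 after group means were taken out, while over all pairs of genes it was 0.01 in each case. These are descriptions over 8 arrays that share their processing. Rtp4 (0.96), Ifi44 (0.93), Ddx58 (0.93) and Irf7 (0.90) followed the mean of the other 33 genes most closely, and 15 genes had an r above 0.5. Oas2 (-0.36), Irf1 (-0.16), Samd9l (-0.11) and Parp9 (-0.04) were the 4 genes with an r below 0.

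Other cell types in the tumour pieces were read from marker lists, and their part in these differences was not tested. Of 10 measured T and NK cell markers 7 were higher, with list means of 5.67 to 5.76 in anti-Ang2 tumours, against 5.62 to 5.74 in IgG tumours. Nkg7, a granule gene of cytotoxic cells, was higher by 0.20 with no overlap between groups (unadjusted limma p under 0.05, adjusted p = 0.689). Gzmb and Cd3g differed by 0.18 and 0.15, beside -0.16 for the NK cell receptor gene Ncr1, -0.025 for Cd3e and 0.0035 for Cd8a. Of 9 plasmacytoid dendritic cell markers 6 were higher, with list means of 6.59 to 6.88 in anti-Ang2 tumours, against 6.69 to 6.89 in IgG tumours. That list includes Bst2, itself among the 34 genes, so it is not a separate reading. Its largest difference was that of Cox6a2, at -0.50, which was highest in IgG replicate 1 (7.67). Of 12 macrophage markers 7 were higher, with list means of 7.34 to 7.57 in anti-Ang2 tumours, against 7.197 to 7.76 in IgG tumours. Single macrophage markers differed in opposite directions: Mrc1 by 0.91 and Cd68 by 0.42, both with no overlap between groups, and Mertk by -0.60 (limma adjusted p = 0.444, 0.546 and 0.620). Neutrophil markers were higher in 7 of 7, with list means of 5.61 to 5.85 in anti-Ang2 tumours, against 5.53 to 5.65 in IgG tumours. Of these neutrophil markers 0 had an unadjusted limma p under 0.05. B and plasma cell markers were higher in 3 of 6 (anti-Ang2 tumours 5.86 to 6.02, IgG tumours 5.83 to 5.91). Among them Ighm was higher by 0.51 with no overlap between groups (limma adjusted p = 0.546). Most markers of these lists were dim. Below the median gene in mean signal lay 9 of 10 T and NK cell, 6 of 7 neutrophil and 5 of 6 B and plasma cell markers. Endothelial markers were higher in 5 of 8 (anti-Ang2 tumours 6.81 to 7.18, IgG tumours 6.89 to 7.01) and fibroblast markers in 5 of 7 (anti-Ang2 tumours 7.73 to 8.22, IgG tumours 7.40 to 8.39). The endothelial marker Pecam1, whose annotation text is cut short, was higher by 0.38 with no overlap between groups (limma adjusted p = 0.473). Skeletal muscle markers had the largest median difference of these lists, at -1.39, with 12 of 12 lower. Of these muscle markers 9 had an unadjusted limma p under 0.05 (75.0%, where 3.00% of all genes were lower at that p). Their list mean was 6.26, 7.47, 6.06 and 5.92 in anti-Ang2 tumours, against 9.64, 8.07, 6.33 and 7.40 in IgG tumours, so the groups overlapped. IgG replicate 1 was the IgG tumour with the highest interferon-stimulated genes. Of the 8 tumours it also had the highest macrophage (7.76), skeletal muscle (9.64) and fibroblast (8.39) means. Its plasmacytoid dendritic cell mean (6.89) was the highest too, but close to the 6.88 of anti-Ang2 replicate 3. That rank rested on Cox6a2, at 7.67 in IgG replicate 1, against 6.48 in anti-Ang2 replicate 3. The melanocytic mean of IgG replicate 1 was the lowest (10.40). This tumour was not the highest for the T and NK cell, neutrophil, B and plasma cell or endothelial lists. Immediate early genes, which respond to tissue handling, were higher in 13 of 15, with list means of 8.12 to 8.51 in anti-Ang2 tumours, against 8.12 to 8.23 in IgG tumours. At an unadjusted limma p under 0.05, 5 of the 15 were higher (33.3%, where 4.09% of all genes were). At the same p 1 was lower (6.67%, where 3.00% of all genes were). Atf3, a stress-induced transcription factor, was higher by 1.03 with no overlap between groups (fold 2.04, limma adjusted p = 0.473), a larger difference than that of any of the 34 genes.

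Of the other interferon pathway genes, the ligands and receptors showed no common direction. Of 14 measured ligand genes 9 were higher and 5 lower, with a median of 0.056. In mean signal 9 of the 14 lay below the median gene, Ifnb1 and Ifng among them. Flat values of such dim genes say little about whether the ligand transcripts changed. Ifnb1, the gene of interferon beta, averaged 5.36 ± 0.056 in the anti-Ang2 group, against 5.36 ± 0.037 in the IgG group (SD, 4 tumours each), and its interval was -0.18 to 0.16. Ifng averaged 5.69 ± 0.10 in the anti-Ang2 group, against 5.55 ± 0.09 in the IgG group, a difference of 0.14 (limma adjusted p = 0.797). Ifna4 was the 1 ligand gene with an unadjusted p under 0.05, at -0.48 (limma adjusted p = 0.701), and interferon alpha genes are near-identical copies that can share signal. Of 6 receptor genes 5 were lower, with a median of -0.13 and 0 at an unadjusted p under 0.05. Ifnar1 differed by -0.012, Ifnar2 by -0.14, Ifngr1 by 0.18 and Ifngr2 by -0.19.

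Among signalling genes downstream of the receptors, Jak1 differed by 0.13 and Tyk2 by -0.12. All 4 other interferon regulatory factors measured were above 0, with Irf3, the factor that starts interferon production, at 0.20. Of 14 adaptors and kinases 9 were higher, with Sting1, the adaptor of DNA sensing, at 0.25, Cgas, its upstream enzyme, at 0.18 and Mavs, the adaptor of RIG-I, at 0.066. None of these 3 lists held a gene with an unadjusted p under 0.05. Among 8 feedback inhibitors Pias4, which restrains Stat proteins, stood at 0.46 with no overlap between groups (limma adjusted p = 0.604) and the phosphatase gene Ptpn11 at -0.35 (limma adjusted p = 0.689), both with an unadjusted p under 0.05.

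A list of 60 measured interferon-stimulated genes outside the 34 held a similar share of positive differences. This list too was chosen with earlier results of these data known, so it is no independent support for the pattern. Of the 60 genes, 44 were higher and 16 lower (73.3% higher), with a median of 0.086. At an unadjusted limma p under 0.05 there were 13 higher (21.7%, where 4.09% of all genes were higher) and 1 lower (1.67%, where 3.00% were lower), and 0 passed adjustment. Over all 109 measured pathway genes 17 had such a p, where 7.09% of all genes had one. Without anti-Ang2 replicate 1 the count was 8, with 5.01% of all genes. Lgals9, which encodes galectin 9, read 10.10, 9.98, 9.99 and 9.70 in anti-Ang2 tumours, against 9.33, 9.21, 9.62 and 8.98 in IgG tumours. The groups did not overlap, and the difference was 0.66 (fold 1.58, interval 1.28 to 1.95, limma adjusted p = 0.444).

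Gbp7, a GTPase of the same family as Gbp3, averaged 8.29 ± 0.26 in the anti-Ang2 group, against 7.66 ± 0.20 in the IgG group (fold 1.56, limma adjusted p = 0.450). Iigp1, an IRG GTPase, averaged 6.64 ± 0.28 in the anti-Ang2 group, against 5.97 ± 0.26 in the IgG group (fold 1.59, limma adjusted p = 0.473). Sp100, a nuclear body protein, averaged 6.57 ± 0.16 in the anti-Ang2 group, against 6.10 ± 0.17 in the IgG group (fold 1.38, limma adjusted p = 0.473). These 3 genes and Parp12 (0.28) did not overlap between groups, and on the lower side neither did the immunoproteasome gene Psmb10, chosen after its values were seen (limma adjusted p = 0.836). Gbp7 and Iigp1 thus differed by 0.64 and 0.67, while Gbp3, Igtp and Irgm1 of the same GTPase families differed by 0.11, -0.0094 and -0.12, a contrast that was not tested.

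The others at that unadjusted p were Ly6e (0.51), the chemokine gene Cxcl9 (0.46), Tdrd7 (0.33), Isg20 (0.32), the peptide transporter gene Tap1 (0.27), Ifitm2 (0.26), Sp110 (0.25), the immunoproteasome gene Psmb9 (0.21) and, on the lower side, Ifitm1 (-0.26). Cxcl10, a chemokine gene often used to read interferon responses, differed by 0.042, with its highest value, 6.62, in IgG replicate 1. Annotation text is also cut short for Ly6e, Tap1, Psmb9 and Ifngr1.

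**Figure D4:**
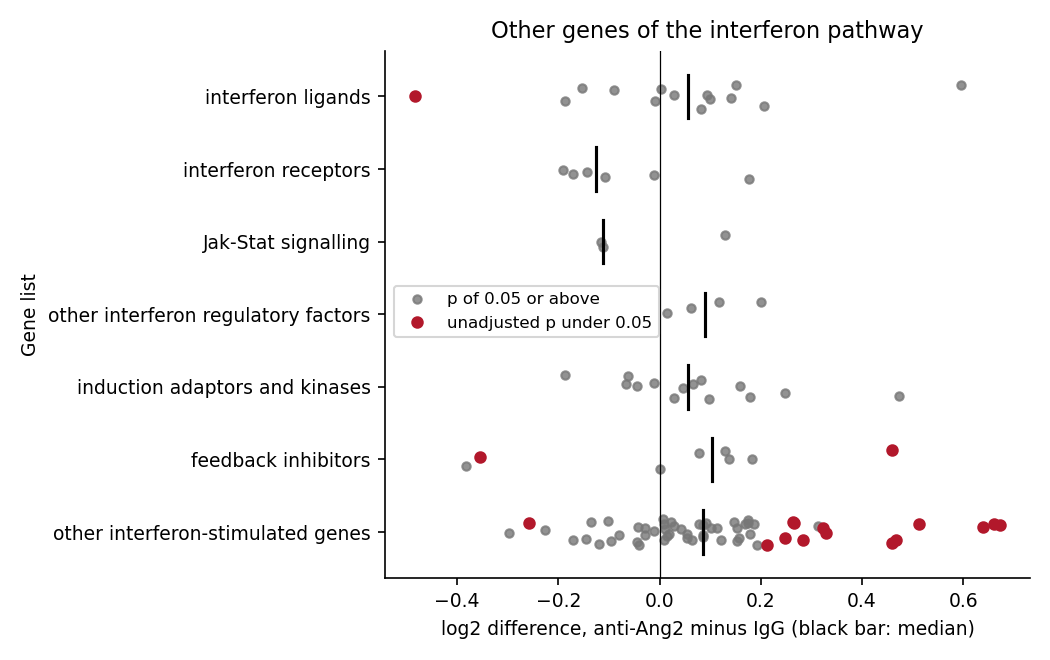
Log2 difference (anti-Ang2 minus IgG, horizontal axis) of each of the 109 other interferon pathway genes by list, with genes at an unadjusted limma p under 0.05 in red and the median of each list as a black bar. Of the 17 red points, 14 lie to the right of 0 and 13 of these are other interferon-stimulated genes, while the receptor median lies at -0.13.

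**Figure D5:**
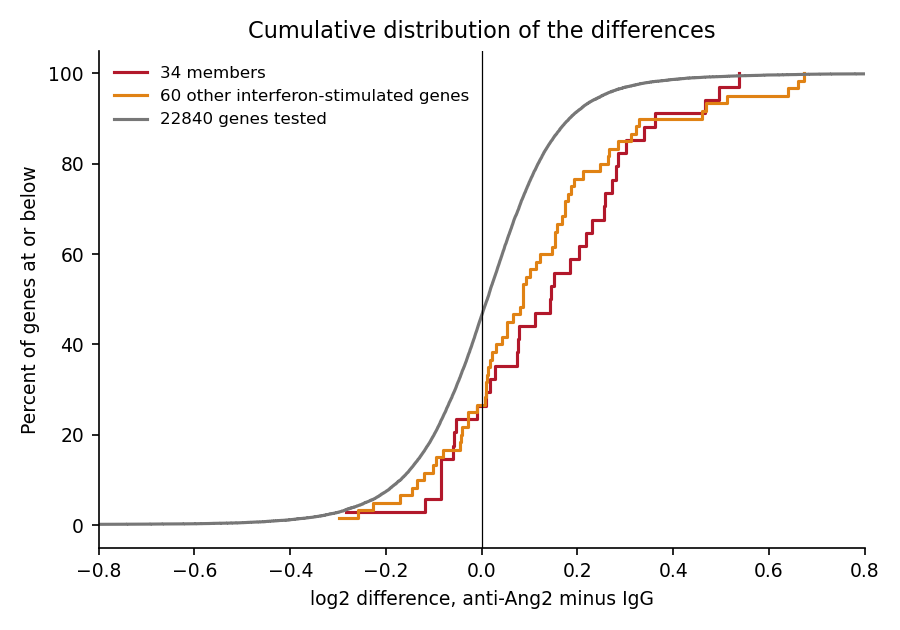
Cumulative percent of genes (vertical axis) at or below each log2 difference (horizontal axis, cropped at 0.8 on both sides) for the 34 genes (red), the 60 other interferon-stimulated genes (orange) and all 22840 genes tested (grey). The red and orange lines run to the right of the grey line over most of the axis, with medians of 0.14 and 0.086 against 0.012. Both lists were chosen with earlier results of these data known.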

How the data were processed

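Total RNA of 8 tumours (250 ng each) was run on Affymetrix whole-transcript arrays as biotin-labelled cDNA, per the labels' protocols. For every probe set the authors deposited an already normalized, linear-scale intensity from each array. How background, summarization and normalization were handled is not given in the sources used here. The authors also deposited a ratio of group means and an unadjusted p-value per probe set, per the file headers. Values in the series table matched the workbook to a relative difference of 4.9e-10.

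The deposited intensities were log2 transformed with no pseudocount and no filter on low values. Of 24648 probe sets, 24643 had values on all arrays, and 22840 named 1 gene and were tested. The 1385 probe sets naming more than 1 gene were not tested, and the names of 418 were not used here. Symbols were updated through Entrez IDs with the RefSeq gene table (21839 genes had an ID in it). Array medians lay between 6.09 and 6.15, and arrays correlated at 0.967 to 0.988 over genes. No pair of arrays held identical values.

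The 2 groups of 4 were fitted without covariates in limma 3.58.1 (lmFit, eBayes; R 4.3.3), with Benjamini-Hochberg adjustment over all 22840 genes and a threshold of 0.05. Intervals of 95% come from that fit. The number of arrays sets the precision: the median SE of a difference was 0.13 for the 34 genes. The fit was first tested on simulated data. No set test was run, since the members and lists were chosen with earlier results of these data known. Every measured member is named. Values per tumour are given for members with an unadjusted p under 0.05 or no overlap, for the 3 with the highest signal and for the largest moderated t of each role group. Pathway genes are named from a short list or at an unadjusted p under 0.05. Alternatives were other normalizations, a filter on dim genes, other variance settings, array weights, a replicate block, other thresholds, the authors' p-values, a shorter promoter window and each tumour left out. Array signals do not compare transcript levels between genes. Tables were handled with pandas 2.3.3 and figures drawn with matplotlib 3.10.9.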

Additional observations from a re-analysis of the deposited data

Results flagged for a closer look

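In 7 of 128 groups of 4 tumours, over the members and named pathway genes, 1 tumour stood far from the other three by Dixon's test. Chance gives about 5% of such groups. Among the 34 members this held for Oasl2 in anti-Ang2 replicate 3, at 7.94 log2 units, where the other anti-Ang2 tumours lay between 7.03 and 7.17. In anti-Ang2 replicate 1, Cgas was low at 5.82 (others 6.48 to 6.57), Mavs was low at 8.74 (others 8.96 to 8.99) and Sp100 was high at 6.80 (others 6.47 to 6.51). In IgG replicate 1, Jak1 was low at 9.55 (others 9.62 to 9.64) and Cxcl10 was high at 6.62 (others 5.79 to 5.86). Tdrd7 was low in IgG replicate 2, at 7.37 (others 7.88 to 7.93).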

How the results depend on the processing

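No member passed the adjusted limma threshold under any alternative run, and 517 of 539 values of single members kept their direction. The 22 that turned belonged to 11 members, while 23 members kept their direction throughout. Outside the fits with 1 tumour left out, the turned values were Ifitm3 at -0.0074 with median centring, and Igtp at 0.0042 and Xaf1 at 0.10 with array weights. With 1 tumour left out in turn, the differences that changed sign spanned -0.0086 to 0.20 for Cmpk2, -0.025 to 0.26 for Gbp3, -0.063 to 0.11 for Ifit3, -0.078 to 0.074 for Ifitm3, -0.088 to 0.052 for Igtp, -0.26 to 0.050 for Irgm1, -0.043 to 0.13 for Mx2, -0.12 to 0.025 for Oasl1, -0.034 to 0.21 for Samd9l, -0.21 to 0.071 for Trim25 and -0.19 to 0.15 for Xaf1. In the same fits the number of members at an unadjusted p under 0.05 ran from 4 to 11, the number higher from 22 to 29, the median member difference from 0.09 to 0.185, the pathway genes at that p from 8 to 18 and the genes past the adjusted threshold from 0 to 1 (the 1, without anti-Ang2 replicate 2, was no member). Over all genes the share at that p ran from 5.01% to 8.81% in the fits with 1 tumour left out. The pathway count was 9 when genes dimmer than the median gene were left out, a fit that holds fewer genes (8.08% of them at that p). At a threshold of 0.1, 11 members passed unadjusted, as did 13.2% of all genes. Median centring turned the balance over all genes at that p to 743 higher and 815 lower, where the uncentred values gave 934 and 685, but left the members at 6 higher and 1 lower.

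Same-numbered tumours deviated together only weakly (r = -0.054 to 0.080 over genes). The labels do not say what the numbers stand for, and a weak r cannot settle whether they mark a shared batch. With the replicate block 8 members and 18 pathway genes had an unadjusted p under 0.05 (7.18% of all genes), 25 members were higher, the median member difference was 0.14 and 0 genes passed adjustment. By the authors' deposited p-values 4 members were under 0.05, as were 5.05% of all genes. In the 250 bases before the start alone, the ISRE core occurred in 36.0% and TTCNNNGAA in 20.0% of the 25 members.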
